A study of Homo sapiens with 3 samples.

Results

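The RUNX genes and CBFB were examined in THP1, a human monocytic leukaemia line. The 4 genes were taken as their protein-coding records in GRCh38, 4 of 20033 such records on chromosomes 1 to 22, X and Y, and every peak over a record or within 50 kb of it was counted to that gene. Chromatin was immunoprecipitated with an antibody to histone H3 acetylated on lysine 27 (H3K27ac, found at promoters and enhancers in use) or to SIRT1, an NAD-dependent deacetylase, in 1 library each, and the input made another library, not analysed here. All 3 libraries came from wild type cells that had been given the phorbol ester PMA for 24 h, which drives this line towards a macrophage-like state, so no untreated cells stand beside them. The line derives from a single leukaemia. The windows of the 4 genes held 67 of 50268 H3K27ac peaks and 31 of 96805 SIRT1 peaks. With 1 library per antibody there was no replicate check, and no p-value was computed; intervals below are exact 95% Poisson or binomial intervals and cover counting error only.

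RUNX proteins bind DNA through their runt domain, and CBFB encodes the subunit that binds no DNA itself but makes their binding tighter. RUNX1 is needed to form blood stem cells and is a frequent target of leukaemia translocations, RUNX2 directs bone formation, and RUNX3 acts in lymphocytes and dendritic cells. Each RUNX gene is known to be read from a distal and a proximal promoter, which give proteins with different amino ends.

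Listed starts of the RUNX genes were set against H3K27ac first. The promoter records of RefSeq on GRCh38.p14 (250 bases before to 50 after a listed start) included the proximal start of RUNX1 (chr21:34888650-34888949, minus strand), the distal and proximal starts of RUNX2 (chr6:45328080-45328379 and chr6:45422025-45422324, plus strand) and those of RUNX3 (chr1:24964961-24965260 and chr1:24930227-24930526, minus strand). H3K27ac peaks lay over the 3 proximal records and over neither distal one. Of 22198 promoter records of protein-coding genes 50.6% had a peak, and these few RUNX records cannot be told apart from that share. The distal start of RUNX1 had no promoter record and is not in this count, though a peak of fold 37.2 lay over that end of its gene record. At RUNX3 the nearest peak ended 37 bp from the distal record, and at RUNX2 it lay 48410 bp away, so only the RUNX2 distal start was far from acetylation. The sequences are shown so that the distal and proximal starts can be compared; each runs 5′ to 3′, and capitals mark matches to TGTGGT or TGCGGT, the core that RUNX proteins recognise, or to TGANTCA, an AP-1 motif, on either strand.
RUNX2 distal: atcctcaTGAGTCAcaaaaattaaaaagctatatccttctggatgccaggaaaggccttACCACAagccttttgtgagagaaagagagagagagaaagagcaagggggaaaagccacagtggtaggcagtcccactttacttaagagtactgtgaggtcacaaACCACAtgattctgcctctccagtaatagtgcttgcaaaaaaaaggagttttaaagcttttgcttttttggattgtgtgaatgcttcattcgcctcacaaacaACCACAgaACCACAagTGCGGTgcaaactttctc
RUNX3 distal: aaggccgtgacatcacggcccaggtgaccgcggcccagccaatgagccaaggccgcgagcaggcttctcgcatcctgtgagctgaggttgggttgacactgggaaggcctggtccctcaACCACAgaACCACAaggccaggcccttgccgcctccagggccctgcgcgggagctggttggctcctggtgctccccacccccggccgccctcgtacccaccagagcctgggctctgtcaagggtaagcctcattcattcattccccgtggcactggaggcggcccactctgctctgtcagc
RUNX2 proximal: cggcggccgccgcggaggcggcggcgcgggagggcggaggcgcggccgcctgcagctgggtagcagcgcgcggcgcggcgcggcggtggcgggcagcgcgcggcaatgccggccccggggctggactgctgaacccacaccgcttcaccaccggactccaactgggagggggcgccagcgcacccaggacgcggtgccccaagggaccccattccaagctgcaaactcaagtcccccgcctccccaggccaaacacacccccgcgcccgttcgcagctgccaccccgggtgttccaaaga
RUNX3 proximal: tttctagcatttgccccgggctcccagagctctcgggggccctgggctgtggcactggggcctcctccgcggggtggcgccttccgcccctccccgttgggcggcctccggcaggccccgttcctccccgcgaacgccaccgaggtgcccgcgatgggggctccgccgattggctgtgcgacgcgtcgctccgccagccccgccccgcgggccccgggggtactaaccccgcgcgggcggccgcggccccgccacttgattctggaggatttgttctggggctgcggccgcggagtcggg
RUNX1 proximal: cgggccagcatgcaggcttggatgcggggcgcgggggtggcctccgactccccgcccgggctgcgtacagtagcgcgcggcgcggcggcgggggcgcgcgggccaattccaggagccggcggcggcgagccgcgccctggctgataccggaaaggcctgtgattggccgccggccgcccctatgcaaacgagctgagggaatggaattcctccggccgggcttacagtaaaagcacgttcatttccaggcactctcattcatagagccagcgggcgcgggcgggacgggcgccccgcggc

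The distal records of RUNX2 and RUNX3 held RUNX motifs, and the proximal records of RUNX1, RUNX2 and RUNX3 held none. The RUNX2 distal record had 4 matches to TGTGGT, read as ACCACA on the other strand, and 1 to TGCGGT. Counted from the listed start as 0, the 4 began at -191, -87, 16 and 24, and the TGCGGT began at 32. A match to TGANTCA at -243 stood at the upstream edge of the same record. In the RUNX3 distal record 2 matches to TGTGGT began at -131 and -123. Over all promoter records of protein-coding genes 11.3% held TGTGGT and 8.54% held TGCGGT. At least 4 matches to TGTGGT were found in 4 of 22198, the RUNX2 distal record among them. That cutoff equals the RUNX2 record's own count, so the rarity is no independent measure. In both distal records 2 matches stood side by side as ACCACA, 2 bases and ACCACA, with the letters ga between them. This arrangement, chosen after the letters were seen and counted with any 2 bases between, occurred in 3 promoter records of 22198. The other was that of the olfactory receptor gene OR52N2, and none of the 3 lay under H3K27ac, that of RUNX3 by the gap of 37 bp. GAGGAAGT, the PU.1 motif, and CACGTG, an E-box, were searched on both strands and were found in none of the 5 RUNX records, against 2.64% and 8.34% of all. A match is only a string of letters in this window and no measure of binding.

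The promoters also differed in base composition. The proximal records had 72.0% G and C with 40 CpG in RUNX1, 76.0% with 39 in RUNX2 and 76.0% with 38 in RUNX3. The distal records had 42.7% with 2 CpG in RUNX2 and 66.3% with 15 in RUNX3, where the median of all promoter records was 62.3% and 21. The RUNX2 distal record was thus poor in CpG and the 3 proximal ones were rich.

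H3K27ac reached within 1 kb of a record end at RUNX1, RUNX3 and CBFB, 3 of the 4 genes, against 56.7% of all protein-coding genes. RUNX2 was the exception, since its acetylation began inside the record. No SIRT1 peak lay within 1 kb of an end of any of the 4, where 10.8% of all genes had one, and none lay over the 5 promoter records, where 1.15% of all had one. Within the full windows all 4 genes had peaks of H3K27ac and of SIRT1, as did 83% and 92.7% of all genes. The share of each window under H3K27ac was 21.9% at RUNX1, 8.35% at RUNX2, 3.57% at RUNX3 and 4.16% at CBFB, against a median of 2.42% over all genes, and 97.3%, 81.7%, 60.1% and 64.2% of genes had less.

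**Figure D1:**
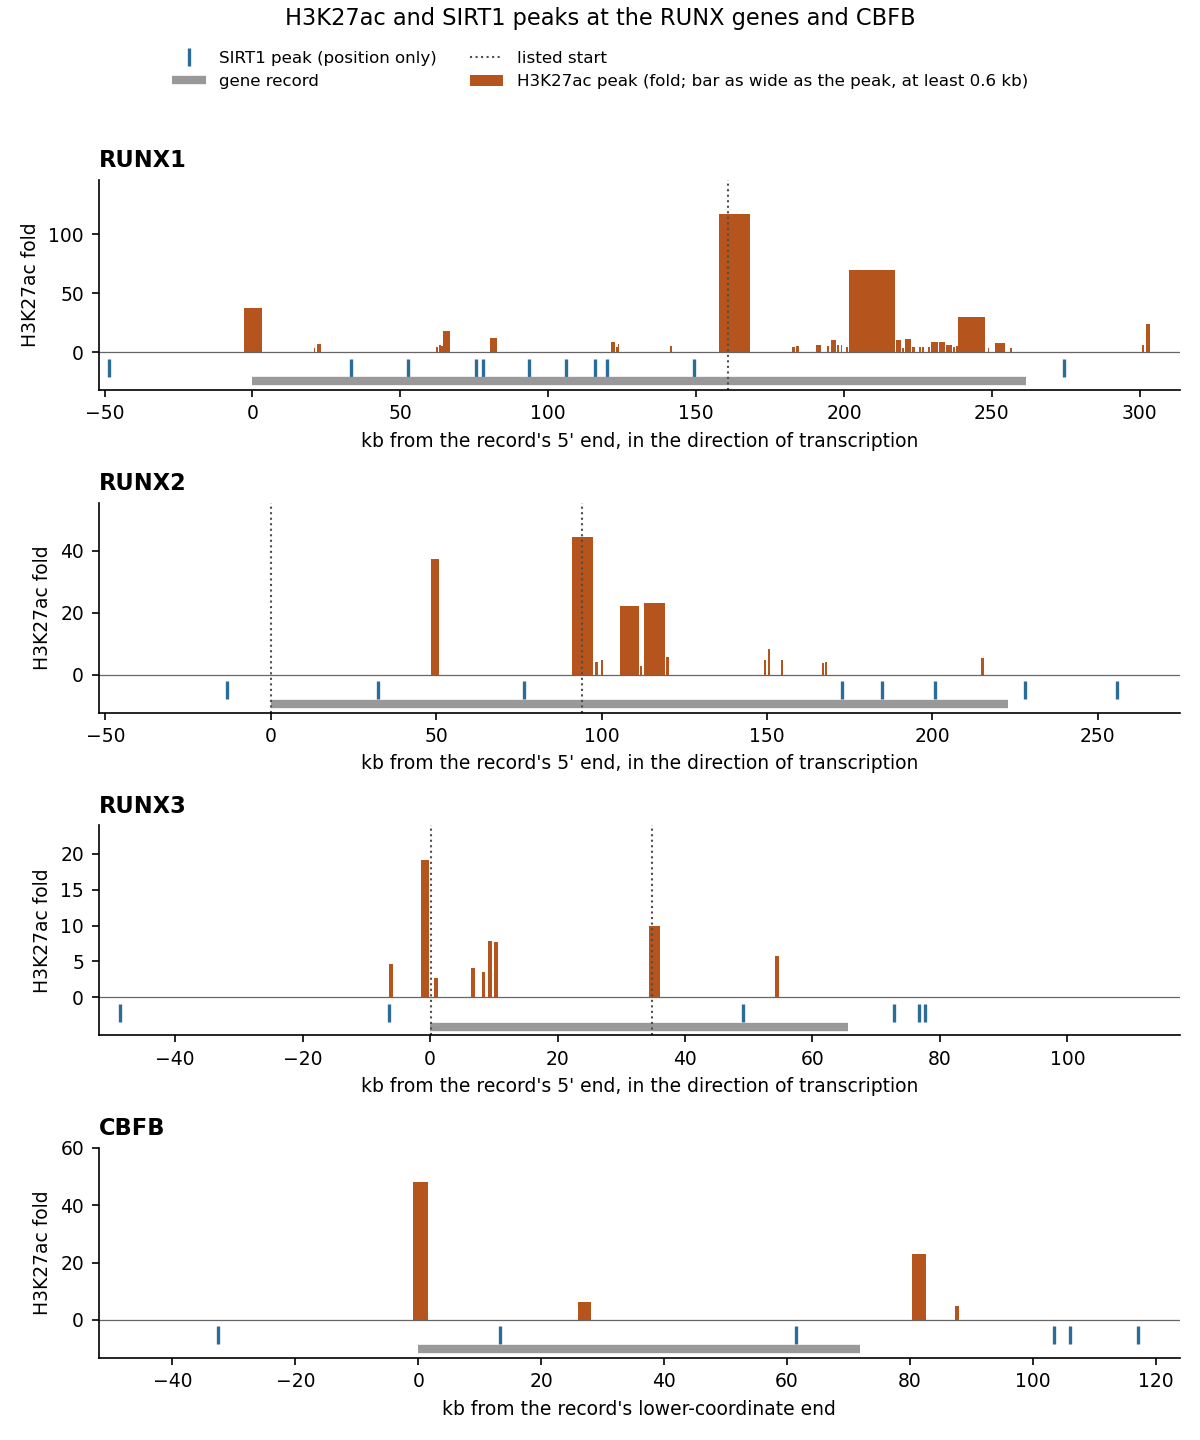
H3K27ac peaks (bars, fold over local background on a linear axis) and SIRT1 peaks (ticks, position only) along the RUNX genes and CBFB, in kb from the record's 5′ end (for CBFB from its lower-coordinate end); grey bars are the gene records and dotted lines the listed starts. H3K27ac is dense after the proximal start of RUNX1, begins at the proximal start of RUNX2 apart from 1 peak, stands at both starts of RUNX3 and at 1 end of CBFB.

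RUNX1, the blood stem cell regulator, was the most heavily acetylated of the 4. Its record on chromosome 21 (GRCh38 34787801 to 35049302, minus strand) and flanks held 40 H3K27ac peaks, 38 of them touching the record, and ranked 27 of 20033 genes by that number. Per 100 kb of its long window that was 11.1 peaks, against a median of 2.39 over all genes, and rank 1418. The peaks ranged in width from 231 to 15598 bp, in fold from 3.10 to 117 and in fragments at the summit from 5 to 270, with medians of 844.5 bp, 6.02 and 14. Folds are the peak caller's values relative to local background, as deposited by the authors; fragments were recovered from fold and p.

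The peak over the proximal RUNX1 start spanned 34881174 to 34891600, or 10427 bp. Its fold of 117 ranked 49 among 48735 H3K27ac peaks, on 270 fragments (239 to 304) over a background of 1.41 times the lowest in the list. The peak at the distal start, where the record begins, spanned 35046000 to 35052243 and had a fold of 37.2 on 101 fragments (82.3 to 123). The proximal start therefore carried the higher signal in this library, with intervals that did not overlap, but the distal start was acetylated as well.

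Downstream of the proximal start RUNX1 was acetylated over most of its length. In the 101 kb from that start to the 3′ end 25 peaks had their summit, and 57.4% of the bases lay under H3K27ac. In the 161 kb between the distal and the proximal start there were 13 summits, those of the peaks at the distal and the proximal start included, and 10.2% of the bases were covered. The widest peak, 34832191 to 34847788, ranked 35 by width in the whole list and had a fold of 69.8 on 182 fragments. It covered the listed start of RUNX1-AS1, a long non-coding RNA gene that runs antisense within the record. Its promoter record (chr21:34836063-34836362, plus strand) is shown because it marks that peak; capitals are matches to TGANTCA.
RUNX1-AS1: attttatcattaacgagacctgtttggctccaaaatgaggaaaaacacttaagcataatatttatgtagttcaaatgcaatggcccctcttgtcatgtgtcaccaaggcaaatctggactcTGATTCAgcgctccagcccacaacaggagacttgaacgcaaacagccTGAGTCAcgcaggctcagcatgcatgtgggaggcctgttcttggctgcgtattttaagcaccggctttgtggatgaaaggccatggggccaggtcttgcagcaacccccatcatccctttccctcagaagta

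That record held TGANTCA at -129 and -82 and no TGTGGT or TGCGGT. Over all promoter records of protein-coding genes 6.15% held TGANTCA. Its 48.3% G and C and 6 CpG set it apart from the proximal RUNX1 promoter, with 72.0% and 40, although both lay under wide H3K27ac peaks.

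Peaks were also joined into domains across the gap commonly used to stitch super-enhancers. The largest at RUNX1 ran from 34792453 to 34866747, a span of 74.3 kb with 25 peaks that covered 50.4 kb, and ranked 26 of 19489 domains by bases covered. The peak at the proximal start formed a domain of its own, which ranked 1030. Apart from the peaks at the distal and the proximal start, the strongest peak between the starts spanned 34982625 to 34984957 with a fold of 18.1 on 37 fragments. Outside the record, a peak of fold 24.1 at 34745716 to 34747346 lay at the start of LINC01426, a neighbouring long non-coding RNA gene.

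RUNX2, known as the master regulator of osteoblasts, was acetylated mainly from its proximal start onwards. The record on chromosome 6 (45328330 to 45551082, plus strand) held all 14 H3K27ac peaks of its window, and neither 50 kb flank had any. The nearest H3K27ac peak to the distal start lay 48459 bp away. That peak, 45376789 to 45379048 with a fold of 37.2 on 166 fragments, covered the start of SUPT3H, a gene of a transcription coactivator complex that overlaps RUNX2 on the other strand.

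At the proximal RUNX2 start the peak spanned 45419509 to 45425732, with a fold of 44.4, and it also covered the start of LOC124901324. It had 403 fragments at its summit (365 to 444), the most of any peak at the 4 genes and rank 78 in the whole list, on a background of 8.66 times the lowest. By fold the same peak ranked 1976. The order of the strongest peaks therefore depended on the measure: by fold RUNX1 came first with 117, then CBFB with 48.0, RUNX2 with 44.4 and RUNX3 with 19.2, and by fragments RUNX2 came first with 403, then RUNX1 with 270, CBFB with 265 and RUNX3 with 68. RUNX1 and CBFB did not differ in fragments beyond counting error.

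Further peaks followed within the next 25 kb of RUNX2. One from 45433760 to 45439637 had a fold of 22.0 and one from 45441215 to 45447511 a fold of 23.2, on 78 and 54 fragments. With the proximal start they formed a domain of 7 peaks that spanned 29.1 kb, covered 21.0 kb and ranked 302 by bases covered. The remaining RUNX2 peaks had folds of 2.81 to 8.26. The background under the RUNX2 peaks had a median of 2.77 times the lowest in the list, against 1.55 over all H3K27ac peaks; its part in the folds was not tested.

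**Figure D2:**
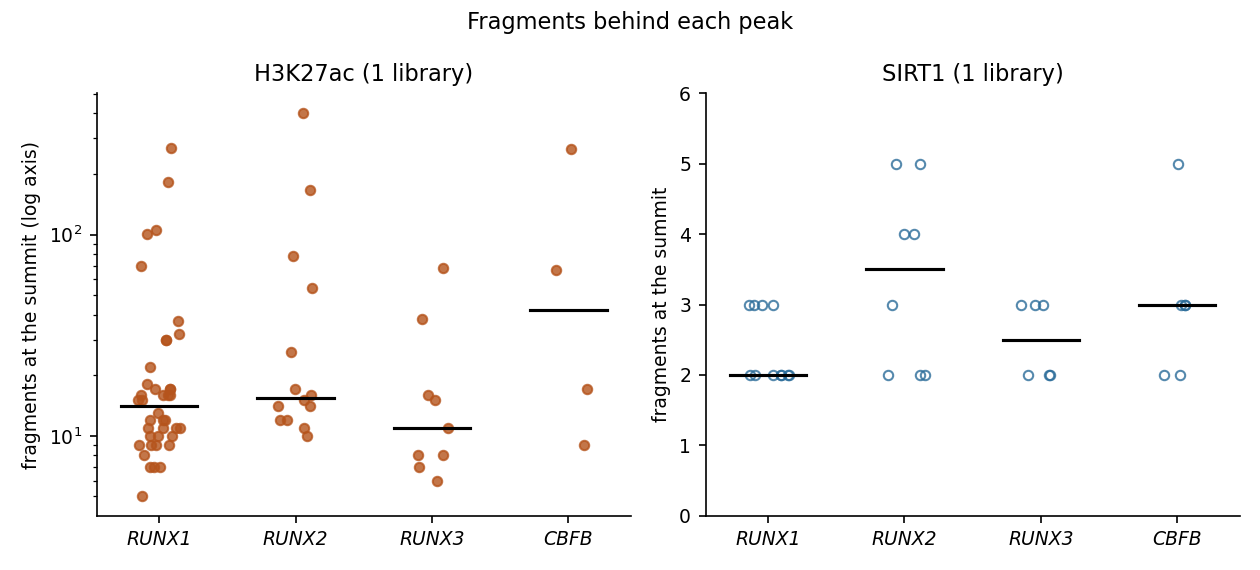
Fragments at the summit of each H3K27ac peak (left, log axis) and each SIRT1 peak (right, linear axis) in the windows of the 4 genes; each point is a peak, and black lines are medians. H3K27ac summits run from 5 to 403 fragments and SIRT1 summits from 2 to 5.

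RUNX3 carried weaker acetylation, at both starts. Its record on chromosome 1 (24899511 to 24965138, minus strand) and flanks held 9 peaks. Their median fold of 5.74 was above the 5.17 of RUNX2 and below the 6.02 of RUNX1 and the 14.5 of CBFB. The strongest, 24965297 to 24966543 with a fold of 19.2 on 68 fragments (52.8 to 86.2), lay just upstream of the distal start. It ended 37 bp short of the distal promoter record and 287 bp from the start itself, so the count over promoter records above misses it by a short distance. A peak of fold 2.75 on 8 fragments lay 515 bp after that start. The peak at the proximal start, 24929092 to 24930811, had a fold of 9.95 on 38 fragments (26.9 to 52.2) and also covered the start of RUNX3-AS1, an antisense gene. The order was thus the reverse of RUNX1 and RUNX2, with the stronger peak at the distal side, and the intervals of the fragment counts, 52.8 to 86.2 at the distal and 26.9 to 52.2 at the proximal start, did not overlap.

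The other RUNX3 peaks were small. A group of 4 between 24954564 and 24958696 had folds of 3.50 to 7.86, and 1 between the proximal start and the 3′ end had 5.74. No H3K27ac peak lay in the 50 kb beyond the 3′ end. In all 8.58% of the bases between the starts and 4.65% of those after the proximal start were covered. Of the 16619 genes with a peak in their window 33.5% had a lower highest fold than the 19.2 of RUNX3.

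CBFB, the common partner of the RUNX proteins, had the pattern of a single strong peak. Its record on chromosome 16 (67029149 to 67101058) and flanks held 4 peaks. The strongest, 67028344 to 67030752, lay over the lower-coordinate end of the record with a fold of 48.0 on 265 fragments (234 to 299). That fold exceeded 88.1% of the 11352 genes with H3K27ac at a gene end. A weaker peak of fold 6.11 stood inside the record. The other 2 lay in the flank: the peak of fold 23.0 at 67109458 to 67111737 covered the start of the neighbour PHAF1, and the last had a fold of 4.79.

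Genes with several listed starts give the setting for the RUNX pattern. Among protein-coding genes, 1642 had listed starts at least 5 kb apart. In 12.3% of them the last start in the direction of transcription lay under H3K27ac and the first did not, which was the class of RUNX2 and RUNX3; the opposite was found in 27.9%, and every start was acetylated in 206 genes. With 1 kb added on either side of the promoter record the class held 12.1% of genes and RUNX2 remained in it, whereas RUNX3 moved to the genes with every start acetylated, 17.8%. A peak over a promoter record but none within 1 kb of a gene end, as at RUNX2, was found in 2.14% of all 20033 genes. Only 15842 genes had a promoter record, so the rest, CBFB among them, could not fall in this class.

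SIRT1 peaks rested on few fragments. Of the 31, 15 had 2 fragments at the summit, 11 had 3, 2 had 4 and 3 had 5. None reached a q of 0.05, as 0.149% of the whole SIRT1 list did, and −log10 q was 0 for 26. Their median fold was 2.41, against 2.78 over the whole list. The windows had 11 SIRT1 peaks at RUNX1, 8 at RUNX2, 6 at RUNX3 and 6 at CBFB, against a median of 4 over all genes.

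Per 100 kb that was 3.04 (1.52 to 5.44), 2.48 (1.07 to 4.88), 3.62 (1.33 to 7.88) and 3.49 (1.28 to 7.60) in the same order, and the median of all genes was 2.74. All 4 intervals include that median and overlap each other, and differences between the 4 genes were not tested. By SIRT1 density RUNX1 ranked 8481 of 20033 genes and by H3K27ac share 541.

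Of the 5 SIRT1 peaks on at least 4 fragments 4 lay in the RUNX2 window, all of them after its proximal start. The peak from 45528925 to 45529274 had a fold of 4.22 on 5 fragments (1.62 to 11.7) and a −log10 q of 0.614. It was followed by 3.87 in the flank of CBFB beyond PHAF1's start and by 3.74 at 45500828 to 45501183 in RUNX2, also on 5 fragments each. At RUNX1 the highest fold was 2.94 on 3 fragments, in the 3′ flank at 34774881 to 34775142 and within the record at 34933285 to 34933541, and RUNX3 also reached 2.94 on 3.

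An H3K27ac peak was overlapped by 1 of the 31 SIRT1 peaks, or 3.23% (0.0816 to 16.7), against 1.01% of the 59441 SIRT1 peaks in any gene window, a share inside that interval. The median distance to the nearest H3K27ac peak was 13800 bp for the 31, against 56271 bp for SIRT1 peaks in any gene window. H3K27ac covered 11.7% of the 4 windows together, against a median of 2.42% over all genes, and its part in the shorter distance was not tested. It lay upstream of RUNX3, from 24971492 to 24971763 on 2 fragments, and touched the edge of an H3K27ac peak of fold 4.65. The other SIRT1 peaks lay 1300 to 61469 bp from the nearest H3K27ac peak.

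Within RUNX1 all 9 SIRT1 peaks of the record lay between the distal and the proximal start, at 5.60 per 100 kb (2.56 to 10.6). None lay in the acetylated stretch after the proximal start, a count of 0 that allows up to 2.97 per 100 kb by the limit of 3 counts. The exact 95% Poisson interval of that 0, which differs from that limit in its definition, ran to 3.66 and overlapped the interval of the upstream stretch. Overlap of intervals does not decide whether the stretches differ, and the difference was not tested. In RUNX2 the 2 stretches had 2.13 (0.258 to 7.69) and 2.33 (0.480 to 6.81), and in RUNX3 they had 0 and 3.25 (0.0823 to 18.1) on 1 peak. Only RUNX1 among the 3 had all peaks of its record on the distal side. Those peaks rested on 2 or 3 fragments each, all with a −log10 q of 0. The records of RUNX2 and RUNX3 held only 5 and 1 SIRT1 peaks.

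**Figure D3:**
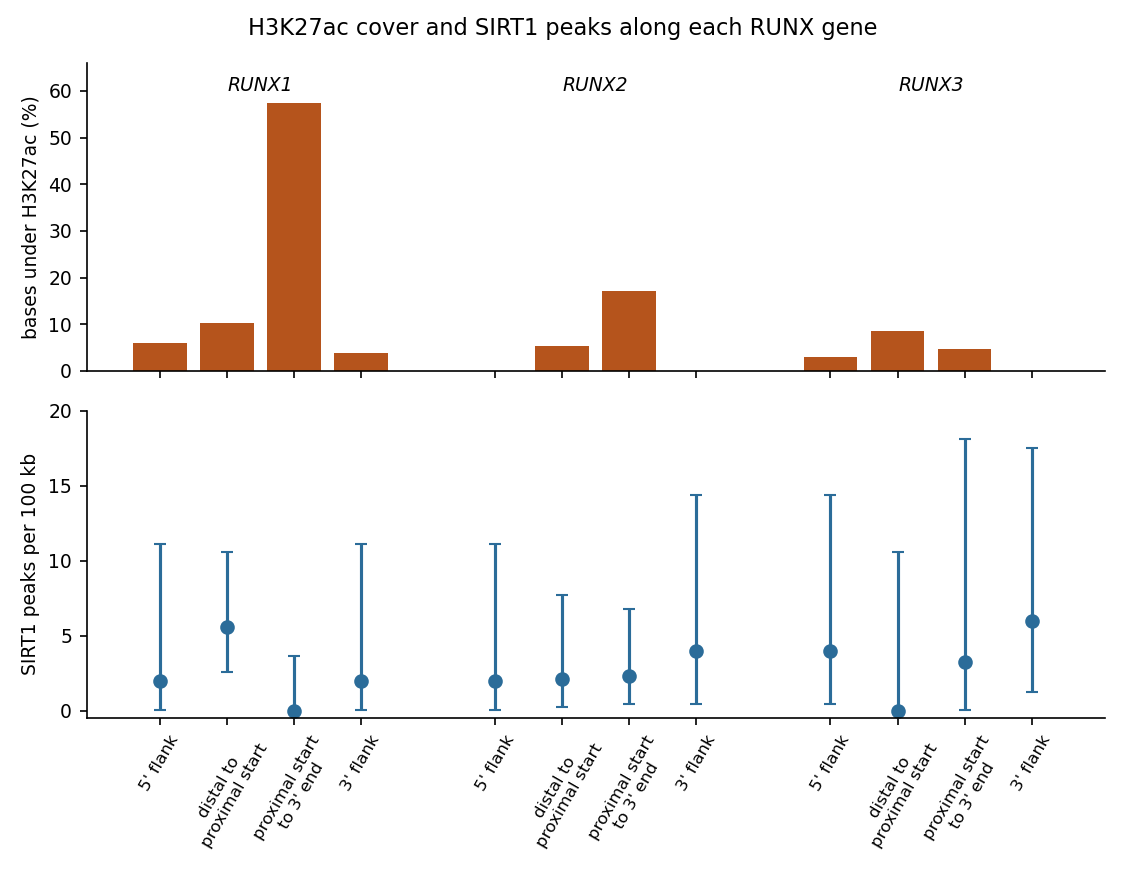
Share of bases under H3K27ac (bars, linear axis from 0) and SIRT1 peaks per 100 kb with exact 95% Poisson intervals (points) in 4 stretches of each RUNX window, from the 5′ to the 3′ flank. The stretch after the proximal start of RUNX1 has 57.4% of its bases under H3K27ac and 0 SIRT1 peaks.

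**Figure D4:**
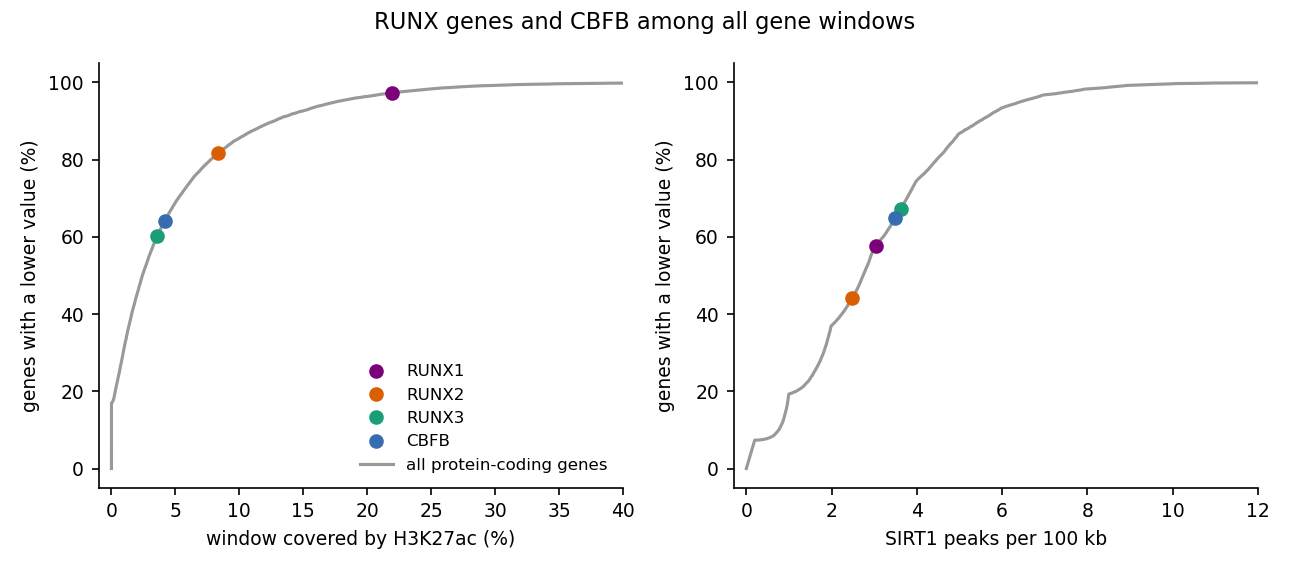
The 4 genes (coloured points) on the distribution over all 20033 gene windows (grey line): percent of the window under H3K27ac (left) and SIRT1 peaks per 100 kb (right), each against the percent of genes with a lower value; the axes end at 40% and at 12 per 100 kb. RUNX1 and RUNX2 lie at 97.3% and 81.7% for H3K27ac and at 57.7% and 44.0% for SIRT1.

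Genes with the most similar pattern were sought over 4 values per gene window: the number of H3K27ac peaks, the highest H3K27ac fold, the percent covered and the number of SIRT1 peaks, as a distance in standard deviations among 16619 genes, with counts and folds on a log2 scale. Each of these values rests on 1 library. For RUNX1 the nearest were TRERF1 and RASA3, at distances of 0.72 each, with 39 and 41 H3K27ac peaks and highest folds of 80.4 and 80.5. For RUNX2 they were NREP at 0.161 and ANKMY1 at 0.243. RUNX3 lay near ZBED4 at 0.0604 and ASPH at 0.116, and CBFB near ZNF212 at 0.0519 and FUCA2 at 0.0890. RUNX1 thus had no gene as close to it as the other 3 had.

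The genes that work with RUNX proteins were counted in the same way, with H3K27ac within 1 kb of a gene end as the call and 56.7% of all genes as the setting. Of 20 cofactor genes 18 were acetylated, with a median fold of 28.6 in those marked, against 19.0 over all marked genes. EP300, which encodes a histone acetyltransferase, had a fold of 156 and HIPK2, a kinase gene, 84.6. RUNX1T1, the fusion partner of RUNX1 in a common leukaemia translocation, had no H3K27ac peak in its whole window, and ETS1, a partner in DNA binding, had 22 peaks but none at a gene end.

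Of 16 blood transcription factor genes that act with RUNX1, 11 were acetylated at an end, or 68.8%, near the 56.7% of all genes. SPI1, which encodes PU.1, had a fold of 109 and CEBPB, a myeloid regulator, 92.2. FLI1 had 11 peaks in its window but none at an end, and GATA2, a stem and mast cell regulator, had 1 peak in its window. MEIS1 had none. The median share of the window under H3K27ac was 8.97% for this list, against 2.42% over all genes.

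Genes known as RUNX targets were taken in 2 short lists. Of 10 blood cell targets 7 were acetylated at an end, near the 56.7% of all genes, and their median fold of 11.2 was below the 19.0 over all marked genes. CSF1R, the receptor for macrophage colony-stimulating factor, had a fold of 68.3 and 44.4% of its window was covered; CD4 followed at 29.8. CSF2 and IL3, cytokine genes that lie next to each other, had no peak at an end. Of 10 skeletal targets of RUNX2 1 was acetylated at an end, SP7, with a fold of 7.64, and 17 peaks lay in its window. The osteocalcin gene BGLAP and the osteopontin gene SPP1 were among the 9 without a peak at an end, though 7 and 3 peaks lay in their windows. The median share of the window under H3K27ac was 1.65% for the skeletal list, against 2.42% over all genes. SIRT1 lay at an end of 1 gene in these 4 lists, the cofactor gene CBFA2T2.

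The cell type was checked by its markers. Of 10 monocyte and macrophage markers 9 had H3K27ac at an end, with a median fold of 26.8, and LYZ was the exception. T cell markers had 2 of 10, CD5 and LCK, and CD3D, CD3E and CD3G had none. Erythroid and megakaryocyte markers had 3 of 10: ALAS2 with a fold of 5.16, KLF1 with 8.92 and EPOR with 15.9. The haemoglobin gene HBB had no H3K27ac peak in its window. Over all protein-coding genes 56.7% had H3K27ac at an end.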

How the data were processed

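ChIP-seq of PMA-treated THP1 cells was deposited as 1 peak list per antibody. The submitters' processing notes name MACS2, deepTools and hg38. Which aligner was used, the tool versions, and whether the input served as control were not given in the sources used here. Summit fold (a ratio relative to local background), −log10 p, −log10 q and score are the authors' deposited values. The smallest −log10 q was 1.303 for H3K27ac and 0 for SIRT1, whose smallest −log10 p was 2.00, so folds and scores were used within their own list only.

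Fragments at the summit were recovered from fold, taken as fragments plus 1 over background plus 1, and from p as a Poisson tail. Within 0.0005 of −log10 p, a single whole number fitted 99.926% of the H3K27ac and 99.959% of the SIRT1 list; elsewhere the nearest was taken. The step was tested on simulated data made with these same formulas, so the test cannot show that the formulas describe the deposited values. Its simulated summits did not reach the 403 fragments of the peak at the proximal RUNX2 start. The lowest background was 0.937 fragments for H3K27ac and 0.362 for SIRT1. Read totals were likewise not given, so depth is known only at summits; in the SIRT1 list 84.4% of summits held 2 or 3 fragments.

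Overlap meant at least 1 shared base. Gene records, starts and sequences came from RefSeq, GRCh38.p14. Starts were listed for 3 of the 4 genes. Without replicates no test was made. Named were the 4 genes with their strongest, widest and gene-end peaks, neighbours whose ends held a peak, the 2 most similar genes each, and in each list the 2 highest folds and 2 genes without H3K27ac. The rule also names ETS1 and FLI1. The non-coding neighbours, MEIS1, CBFA2T2, OR52N2 and the markers named, the 5 kb start spacing and the paired motif were chosen after values were seen. The members and lists were chosen with earlier results of these data known. Computations ran in Python 3.11.15 with scipy 1.17.1, pandas 2.3.3 and numpy 2.4.6, and plots in matplotlib 3.10.9.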

Additional observations from a re-analysis of the deposited data

How the results depend on the processing

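H3K27ac lay at a gene end of 3 of the 4 genes in every setting run for it, and SIRT1 at an end of 0. Of 56 genes in the RUNX lists 37 had H3K27ac at an end, against 56.7% of all genes, and 36 or 37 in the settings run. These pooled lists ranged from 18 of 20 cofactor genes to 1 of 10 skeletal targets. The share of all genes was not set beside the other settings. The 67 H3K27ac peaks became 46 with a −log10 q of at least 5, 54 with a fold of at least 4, 61 in the records alone and 85 with 100 kb either side. The share under H3K27ac, 11.7% over the 4 windows together, was 10.8% with a −log10 q of at least 5, 11.1% with a fold of at least 4, 17.6% in the records alone and 9.62% with 100 kb either side. RUNX1 had the highest share in each of these settings. SIRT1 counts changed more: the 31 peaks became 5 on at least 4 fragments, 0 with a −log10 q of at least 1.3 and 17 in the records alone. The 1 SIRT1 peak over H3K27ac became 0 under these same 3 settings and under an overlap of at least 50%, and 2 with 100 kb either side. Joining peaks within 25 kb gave 9 domains in place of 17, and within 5 kb 21. The cause of these changes was not tested, except that smaller windows and fewer peaks give lower counts by construction. RUNX3 had 5 H3K27ac peaks at a −log10 q of at least 5 and 16 with 100 kb either side, and CBFB 12 there. No paired analysis was possible because each antibody had 1 library. SIRT1 values rest on 2 to 5 fragments a peak, which limits what they can show.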
